A study of Homo sapiens with 72 samples.

Results

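The genes described here were 41 genes of DNA replication and repair, named by symbol as a list and taken from a table of 44659 genes. By role, 10 license replication origins (ORC1, ORC6, CDC6, CDT1 and MCM2 to MCM7) and 6 activate the helicase (MCM10, CDC45 and GINS1 to GINS4). Another 13 are polymerase subunits, primase, the sliding clamp, its loader and enzymes that join Okazaki fragments (PCNA, RFC2 to RFC5, POLA1, POLA2, PRIM1, POLE, POLE2, POLD1, FEN1 and LIG1). The list also held 3 genes of nucleotide supply (RRM1, RRM2 and TYMS), 3 of fork checkpoint signalling and chromatin assembly (CLSPN, CHAF1A and CHAF1B) and 6 of homologous and crosslink repair (BRCA1, BRCA2, FANCD2, FANCI, BLM and EXO1). All 41 genes passed the filter on low counts in every comparison.

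The data were 72 QuantSeq libraries, which read the 3′ ends of polyadenylated RNA, made from the cytoplasm of A375, a human melanoma cell line in long-standing use. In the first experiment, cells carried siRNAs against CTU2 (siCTU2, a pool of 2 siRNAs) or the control siRNA siGL2 for 42 h. In the second, cells were kept for 18 h in fresh medium without glutamine (mQ), or in medium with glutamine (pQ). No duration is recorded for pQ. CTU2 is a subunit of the enzyme that thiolates the wobble uridine of tRNAs for AAA, GAA and CAA codons. In every condition transcription was then stopped with 25 µM triptolide. This was done without (T arm) or with (TCHX arm) 100 µg/ml of the translation inhibitor cycloheximide, and cells were harvested at 0, 3 or 5 h, with 3 replicates in each of the 24 groups. The T and TCHX arms are separate libraries at 0 h too. The sources do not say whether the replicates were separate cultures, so p-values measure the spread between these libraries.

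In the G1 phase of the cell cycle, the origin recognition complex, CDC6 and CDT1 load the MCM2-7 helicase on DNA. At the start of S phase, MCM10, CDC45 and the GINS complex turn it into an active helicase, and polymerases tethered by the clamp PCNA copy both strands. Ribonucleotide reductase (RRM1 and RRM2) and thymidylate synthase (TYMS) supply the nucleotides. BRCA1, BRCA2, BLM, EXO1 and the Fanconi anaemia proteins FANCD2 and FANCI repair and restart damaged forks. Many of these genes are transcribed under control of E2F factors as cells enter S phase. In bulk RNA, fewer cells in S phase and less RNA of these genes per cell cannot be told apart.

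Total counts ranged from 5987692 to 15534331 per library. CTU2 stood at 2.95, 1.01 and 1.32 CPM (counts scaled to equal library totals) in the siCTU2 T arm libraries at 0 h and at 21.1, 22.0 and 24.2 CPM in siGL2. Its log2 fold change was −3.71 (SE 0.28, adjusted p = 9.16e-09, edgeR). The library labelled siCTU2 TCHX 5 h replicate 3 held 10.4 CPM of CTU2, against at most 2.95 in the other siCTU2 libraries and 17.5 to 35.0 in siGL2. This library, mQ T 5 h replicate 3 and pQ TCHX 0 h replicate 3 stood apart, since 19896 to 20364 genes had a count in them and 15507 to 17495 genes in each of the rest. The melanocyte lineage markers SOX10, MITF, DCT, S100B, S100A1 and PMEL, and the mesenchymal gene VIM, had counts in all 72 libraries (SOX10 at 25.4 to 424 CPM), whereas the pigment cell genes MLANA and TYR reached at most 1.47 CPM each. Markers of keratinocytes and fibroblasts reached at most 6.69 CPM. The leukocyte marker PTPRC had a median of 0.0398 CPM and reached 32.6 CPM in its highest library.

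In the siRNA experiment, called genes of the list went both ways at 0 h. Among the 41 genes, 5 were higher in siCTU2 than in siGL2 (TYMS, RRM2, PCNA, CDT1 and FEN1) and 9 were lower (GINS1, RFC5, BRCA1, LIG1, EXO1, GINS4, MCM3, CDC6 and MCM4), at an adjusted p under 0.05 in edgeR's quasi-likelihood test on the 6 T arm libraries. Of the 12292 genes tested, 36% passed the same threshold, 17.8% higher and 18.2% lower. The median log2 fold change of the list was −0.12, against 0.00 for all genes. By role, the higher and lower genes numbered 1 and 3 in licensing, 0 and 2 in helicase activation, 2 and 2 in polymerases, clamp and loader, 2 and 0 in nucleotide supply, 0 and 0 in fork checkpoint and chromatin assembly, and 0 and 2 in repair.

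**Figure D1:**
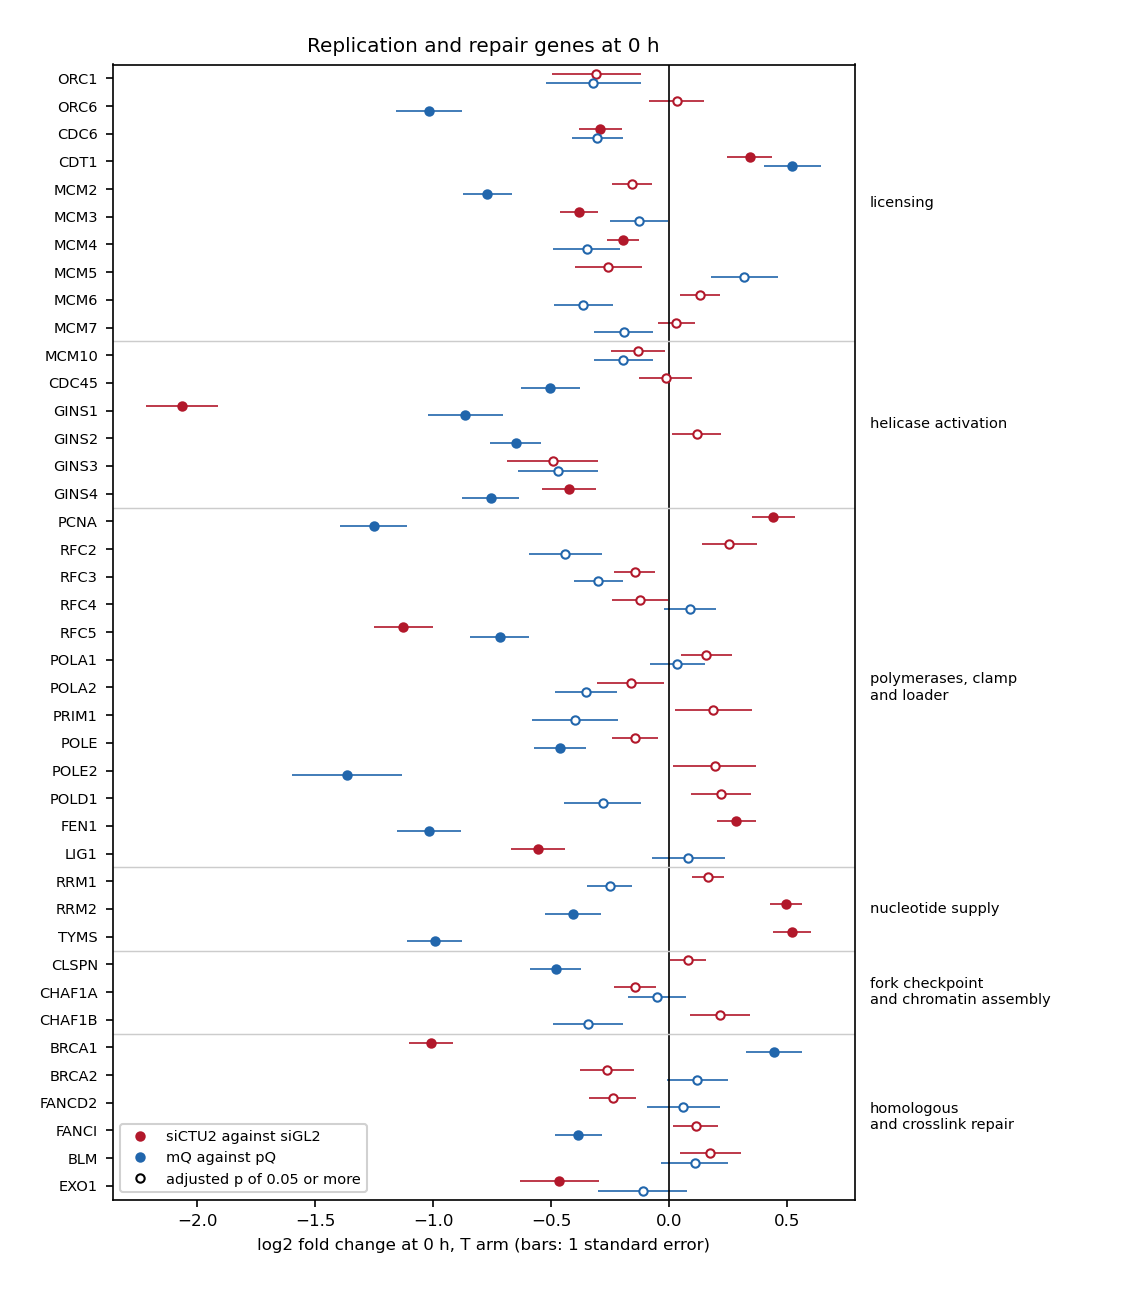
Log2 fold change at 0 h of each of the 41 genes, by role, for siCTU2 against siGL2 (red) and mQ against pQ (blue), with bars of 1 SE and hollow points at an adjusted p of 0.05 or more. GINS1 lay lowest in siCTU2 (−2.07), POLE2 lowest in mQ (−1.37), and TYMS, RRM2, PCNA and FEN1 lay above 0 in red and below 0 in blue.

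Both genes called in nucleotide supply rose. RRM2, the regulated subunit of ribonucleotide reductase, stood at 597, 597 and 529.8 CPM in siCTU2 and at 407, 429 and 384 CPM in siGL2, a log2 fold change of 0.50 (SE 0.069, adjusted p = 1.80e-05). TYMS, which makes thymidylate, stood at 523, 485 and 431 CPM against 339, 361 and 300.2 CPM (0.52, SE 0.081, adjusted p = 6.01e-05). RRM2 lies at chr2:10122739-10131414 on the plus strand and TYMS at chr18:657653-673578 on the plus strand (GRCh38, GENCODE v44). The lowest siCTU2 library lay above the highest siGL2 library for both genes. Groups lay apart also in genes of the list that did not pass, such as RRM1 and BLM. The share over all genes was not determined, so such separation is a description only. RRM1, the large subunit, stood at 314, 320.1 and 312 CPM against 273, 296 and 272 CPM and did not pass (0.16, adjusted p = 0.0645). Summed over the 3 genes, the siCTU2 libraries held 1273 to 1435 CPM and the siGL2 libraries 956 to 1086 CPM. The last exon of TYMS overlaps that of ENOSF1 on the opposite strand over 719 bases. Whether reads were counted by strand is not given in the sources used here, so reads of these genes cannot be told apart. The same limit holds for GINS4 (814 bases), MCM2 (774 bases) and BLM (443 bases), whose last exons overlap other genes on the opposite strand. For RRM1, CDC45 and GINS2 such overlaps span at most 63 bases. The last exon of PRIM1 overlaps NACA on the same strand over 49 bases, where strand cannot tell the reads apart.

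At the fork, the clamp and the flap endonuclease went the same way. PCNA (chr20:5114953-5119958, minus strand) stood at 271, 256 and 225 CPM in siCTU2 and at 197, 197 and 158 CPM in siGL2 (log2 fold change 0.44, SE 0.092, adjusted p = 0.000981). FEN1, which trims the ends of Okazaki fragments, stood at 317, 274 and 270.0 CPM against 255, 219 and 230.4 CPM (0.29, SE 0.081, adjusted p = 0.00988). A pseudogene and an antisense gene of PCNA are in the same table, so its counts are uncertain to that extent. In neither gene did the groups overlap. In the TCHX arm at 0 h, another set of libraries of the same conditions, RRM2 (0.48, adjusted p = 0.000544) and TYMS (0.27, adjusted p = 0.0114) passed again, while PCNA (0.21, adjusted p = 0.105) and FEN1 (0.026, adjusted p = 0.853) did not. The FEN1 call was also lost without siCTU2 replicate 1 (adjusted p = 0.0738) and without siGL2 replicate 2 (adjusted p = 0.0609).

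GINS1 (chr20:25407673-25448563, plus strand), a subunit of the GINS complex of the active helicase, fell most. It stood at 10.9, 8.76 and 7.85 CPM in siCTU2, from 95 to 103 reads a library, and at 35.9, 39.5 and 38.6 CPM in siGL2. The log2 fold change was −2.07 (SE 0.15, adjusted p = 7.24e-09) and −2.70 in the TCHX arm at 0 h (adjusted p = 1.06e-08). Of the other GINS subunits, GINS4 was lower (−0.42, SE 0.11, adjusted p = 0.00760), GINS3 missed the threshold (−0.49, adjusted p = 0.0532) and GINS2 had a log2 fold change of 0.12 (adjusted p = 0.412). The complex contains the 4 subunits together, and their RNAs did not move as 1 group.

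RFC5 and LIG1 were the lower genes of the replication machinery proper. RFC5 (chr12:118016703-118032234, plus strand), a subunit of the clamp loader, stood at 42.7, 44.1 and 32.0 CPM in siCTU2 and at 82.2, 97.9 and 77.7 CPM in siGL2 (−1.13, SE 0.12, adjusted p = 1.13e-06). The loader subunits RFC2 (0.26, adjusted p = 0.0926), RFC3 (−0.15, adjusted p = 0.204) and RFC4 (−0.12, adjusted p = 0.453) did not pass. LIG1, the ligase that seals Okazaki fragments, stood at 36.9, 32.1 and 35.4 CPM against 51.2, 46.1 and 55.9 CPM (−0.56, SE 0.11, adjusted p = 0.000841). RFC5 was lower in the TCHX arm too (−1.24, adjusted p = 8.60e-09), whereas LIG1 had the other sign there (0.10, adjusted p = 0.600), with 51.7, 42.9 and 46.0 CPM in siCTU2 and 35.2, 45.4 and 51.3 CPM in siGL2.

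Of the helicase core, MCM3 and MCM4 were lower by small amounts. MCM3 stood at 159, 142 and 156 CPM in siCTU2 and at 187, 191 and 216 CPM in siGL2 (−0.38, SE 0.081, adjusted p = 0.00118). MCM4 had a log2 fold change of −0.20 (adjusted p = 0.0282), and the other 4 subunits lay between −0.26 for MCM5 and 0.13 for MCM6, none past the threshold. The loading factor CDC6 was lower (−0.29, adjusted p = 0.0185) and its partner CDT1 higher (0.34, adjusted p = 0.00905), so the factors that load the helicase moved in opposite directions.

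Among repair genes, BRCA1 (chr17:43044295-43125364, minus strand), which acts in homologous recombination, fell from 105, 93.6 and 95.4 CPM in siGL2 to 45.4, 50.4 and 50.5 CPM in siCTU2. Its log2 fold change was −1.01 (SE 0.093, adjusted p = 1.28e-07) and −0.83 in the TCHX arm (adjusted p = 7.54e-07). EXO1, an exonuclease that resects DNA ends, stood at 19.3, 17.9 and 13.1 CPM against 26.4, 22.8 and 19.6 CPM (−0.46, SE 0.17, adjusted p = 0.0396). The EXO1 call was lost in 4 of the 6 fits without 1 library (siCTU2 replicate 2 or 3, siGL2 replicate 1 or 2, adjusted p from 0.0511 to 0.173). BLM, a helicase that dissolves recombination intermediates, stood at 27.3, 28.2 and 26.7 CPM in siCTU2 and at 24.6, 26.2 and 21.7 CPM in siGL2 (0.18, adjusted p = 0.316).

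Other genes for which the study listed qPCR primers did not pass either. CHAF1B, a subunit of the histone chaperone CAF-1, stood at 28.2, 26.5 and 28.8 CPM in siCTU2 and at 22.4, 24.3 and 25.1 CPM in siGL2 (0.22, adjusted p = 0.201). MCM10 stood at 58.6, 44.2 and 46.3 CPM against 53.6, 53.1 and 55.9 CPM (−0.13, adjusted p = 0.401). RFC4 stood at 60.7, 49.9 and 45.4 CPM against 62.8, 51.3 and 54.9 CPM. The groups overlapped for MCM10 and RFC4 and not for CHAF1B.

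The siRNAs of the first experiment are printed so that their letters can be set beside the genes of the list. They are given 5′ to 3′ with the seed (bases 2 to 8 of the antisense strand) in capitals.
siCTU2#1, antisense: uUGGUCAUgagcuugauag
siCTU2#2, antisense: aAGUCCUUcauguucacgc
siGL2, antisense: uCGAAGUAuuccgcguacg
The sense strand of siCTU2#1 matched chr16:88713389-88713407 (GRCh38, plus strand), in the coding part of exon 8 of CTU2, and that of siCTU2#2 matched chr16:88714907-88714925, in the coding part of exon 13. After the values had been seen, the 3′ UTRs of GENCODE v44 canonical transcripts were searched for the reverse complement of each seed. For siCTU2#2 this is AAGGACU, which was found in GINS1, GINS2, RFC5, CLSPN and BRCA1. The matches in the 3 of these genes that were lower in siCTU2 are shown as RNA with the match in capitals.
GINS1, chr20:25446152-25446158, plus strand: gcuaacuauuAAGGACUuucuuuuuuu
GINS1, chr20:25447440-25447446, plus strand: cauuuuuugaAAGGACUgcccuuugcu
RFC5, chr12:118032007-118032013, plus strand: agaacugcggAAGGACUgggacuuuug
BRCA1, chr17:43045530-43045536, minus strand: ucagccugaaAAGGACUucuggcuaug
BRCA1, chr17:43044411-43044417, minus strand: uagcuguuggAAGGACUaggucuuccc

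Of the 5 genes with a match to the seed of siCTU2#2, 3 were lower in siCTU2 (GINS1, RFC5 and BRCA1, which had the lowest fold changes of the list), while GINS2 (0.12) and CLSPN (0.081) did not pass. In mQ against pQ, where no siRNA was used, 4 of the same 5 genes were lower (GINS1, GINS2, RFC5 and CLSPN) and BRCA1 was higher. The seed of siCTU2#1 had matches in MCM4, RFC3, RFC4, CLSPN and CHAF1B, of which MCM4 was lower in siCTU2. Among the 32 genes with a match to neither seed, 5 were lower and 5 higher in siCTU2, and 11 were lower and 1 higher in mQ. Of 19675 gene models, 11.5% held a match to the seed of siCTU2#2 and 8.88% one to that of siCTU2#1. Over all genes tested with a model, 30.5% of 1479 with the siCTU2#2 match were lower in siCTU2, against 17.9% of 9297 without. The shares higher in siCTU2 were 14.6% and 19.3%. For the siCTU2#1 match, 31.3% of 1157 genes were lower and 15.6% higher, against 18.2% and 19.04% of 9619 without. In mQ, 13.2% of 1487 genes with the siCTU2#2 match were lower, against 13.7% of 9343 without. A match is a run of letters and not a shown site, and its part in the changes of these genes was not tested.

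Without glutamine, most of the called genes were lower. In mQ against pQ at 0 h, 15 genes were lower and 2 were higher (CDT1 and BRCA1), where 24.8% of the 12374 genes tested passed, 12.5% higher and 12.4% lower. The median log2 fold change was −0.35, against 0.01 for all genes, and 32 of the 41 genes had a negative sign. The higher and lower genes numbered 1 and 2 in licensing, 0 and 4 in helicase activation, 0 and 5 in polymerases, clamp and loader, 0 and 2 in nucleotide supply, 0 and 1 in fork checkpoint and chromatin assembly, and 1 and 1 in repair. Summed over the list, the mQ libraries held 3546 to 4258 CPM and the pQ libraries 5048 to 5588 CPM. The count of lower genes was 11 to 23 when 1 library was left out, and 23 without mQ replicate 2. In those fits 11.7 to 26.3% of all genes passed in either direction, with 26.3% without mQ replicate 2.

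PCNA had the smallest p and fell from 320.1, 290.0 and 233 CPM in pQ to 135, 104 and 102 CPM in mQ (log2 fold change −1.25, SE 0.14, adjusted p = 0.000155). FEN1 went from 249, 291 and 244 CPM to 149, 104 and 122 CPM (−1.02, SE 0.13, adjusted p = 0.000426). POLE2, the accessory subunit of the leading-strand polymerase, went from 14.9, 23.7 and 14.8 CPM to 7.55, 6.37 and 6.07 CPM (−1.37, SE 0.24, adjusted p = 0.00208). The groups lay apart in all 3 genes, but also in genes of the list that did not pass, such as MCM4 and CHAF1B. POLE, its catalytic partner, was lower too (−0.46, adjusted p = 0.0108), and so was the loader subunit RFC5 (−0.72, adjusted p = 0.00226). The lagging-strand polymerase genes POLA1 (0.034, adjusted p = 0.859), POLA2 (−0.35, adjusted p = 0.0671) and POLD1 (−0.28, adjusted p = 0.234) did not pass.

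In nucleotide supply, TYMS fell from 491, 542 and 453 CPM to 248, 264 and 207 CPM (−0.99, SE 0.12, adjusted p = 0.000206). RRM2 went from 504, 555 and 433 CPM to 357, 403 and 324 CPM (−0.41, SE 0.12, adjusted p = 0.0270). RRM1 stood at 259, 246 and 263 CPM in mQ and at 303, 332 and 314 CPM in pQ (−0.25, adjusted p = 0.0684). The groups did not overlap in any of the 3 genes, RRM1 included, which did not pass. The RRM2 call was lost when any of mQ replicates 1 or 3 or pQ replicates 1 or 2 was left out (adjusted p from 0.0535 to 0.140). Together the 3 genes held 794 to 914 CPM in mQ and 1199 to 1429 CPM in pQ.

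Helicase activation had 4 of its 6 genes lower, among them 3 of the 4 GINS subunits. GINS4 stood at 27.5, 27.4 and 27.3 CPM in mQ and at 49.8, 47.0 and 47.3 CPM in pQ (−0.76, SE 0.12, adjusted p = 0.00135). GINS2 stood at 43.9, 45.3 and 40.7 CPM against 70.6, 71.2 and 69.8 CPM (−0.65, SE 0.11, adjusted p = 0.00183). GINS1 stood at 30.4, 26.7 and 25.9 CPM against 57.5, 58.7 and 40.6 CPM (−0.86, SE 0.16, adjusted p = 0.00294). CDC45 was lower (−0.50, adjusted p = 0.0128), GINS3 missed the threshold (−0.47, adjusted p = 0.0639), and MCM10 stood at 63.0, 64.9 and 49.6 CPM against 71.6, 71.6 and 67.4 CPM (−0.19, adjusted p = 0.282).

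In licensing, ORC6, the smallest subunit of the origin recognition complex, stood at 37.9, 29.5 and 39.1 CPM in mQ and at 83.1, 73.6 and 66.7 CPM in pQ (−1.02, SE 0.14, adjusted p = 0.000527). MCM2 stood at 202, 162 and 188 CPM against 322, 335 and 319 CPM (−0.77, SE 0.10, adjusted p = 0.000496). The other MCM2-7 subunits did not pass, with values from −0.36 for MCM6 to 0.32 for MCM5. CDT1 was higher, at 109, 121 and 91.9 CPM against 72.5, 79.4 and 80.6 CPM (0.52, SE 0.12, adjusted p = 0.00959).

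Repair genes went both ways by small amounts. BRCA1 stood at 137, 174 and 139 CPM in mQ and at 119, 111 and 113 CPM in pQ (0.44, SE 0.12, adjusted p = 0.0181). This call was lost without any 1 of the pQ replicates (adjusted p from 0.0582 to 0.0841). FANCI was lower (−0.38, adjusted p = 0.0159), with 431 bases of its last exon shared with POLG on the opposite strand. BLM stood at 35.0, 32.9 and 30.0 CPM against 31.0, 27.8 and 35.2 CPM (0.11, adjusted p = 0.606), and EXO1 at 21.0, 24.7 and 24.6 CPM against 32.8, 26.7 and 19.8 CPM (−0.11, adjusted p = 0.699). Those groups overlapped. CLSPN, the mediator between ATR and the kinase CHK1, was lower (−0.48, adjusted p = 0.00778), while CHAF1B stood at 22.4, 25.3 and 19.4 CPM against 29.8, 30.1 and 28.6 CPM (−0.34, adjusted p = 0.112) and RFC4 at 73.6, 73.3 and 66.1 CPM against 68.7, 64.0 and 74.9 CPM (0.090, adjusted p = 0.591).

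In the TCHX arm at 0 h, where 1 of the 3 pQ libraries stood apart from the rest, 7 genes of the list were lower and 0 higher, and 6.47% of all genes passed in either direction. Without that library, a choice made after seeing the data, 21 were lower and 1 was higher, and 20.1% of all genes passed. PCNA had a log2 fold change of −0.62 with it (adjusted p = 0.0624) and of −0.82 without it (adjusted p = 2.57e-06), and TYMS of −0.63 (adjusted p = 0.0654) and −0.83 (adjusted p = 1.26e-06). POLE2 (−0.66), ORC6 (−0.49) and MCM2 (−0.42) were smaller in that arm than in the T arm and passed without the library that stood apart. With it, these 3 genes did not pass (adjusted p from 0.359 to 0.603).

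Side by side, 9 genes (22% of the list) passed in both comparisons, as did 10.6% of the 11968 genes tested in both. PCNA, FEN1, RRM2 and TYMS were higher in siCTU2 and lower in mQ, and BRCA1 was lower in siCTU2 and higher in mQ. CDT1 was higher in both, and GINS1, GINS4 and RFC5 were lower in both. The 5 genes with opposite directions were 12.2% of the list, against 5.30% of all genes, and the 4 with the same direction 9.76%, against 5.27%. Another 5 genes were called in siCTU2 alone, all lower (12.2%, against 25.8% of all genes in either direction), 8 in mQ alone, all lower (19.5%, against 14.7%), and 19 in neither (46.3%, against 49%). Across the 41 genes the 2 sets of fold changes, which share no library, had a Pearson correlation of −0.10 and a Spearman correlation of −0.23, against 0.0098 and 0.0067 across all genes tested in both. Genes are not independent, and these values are a description.

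**Figure D2:**
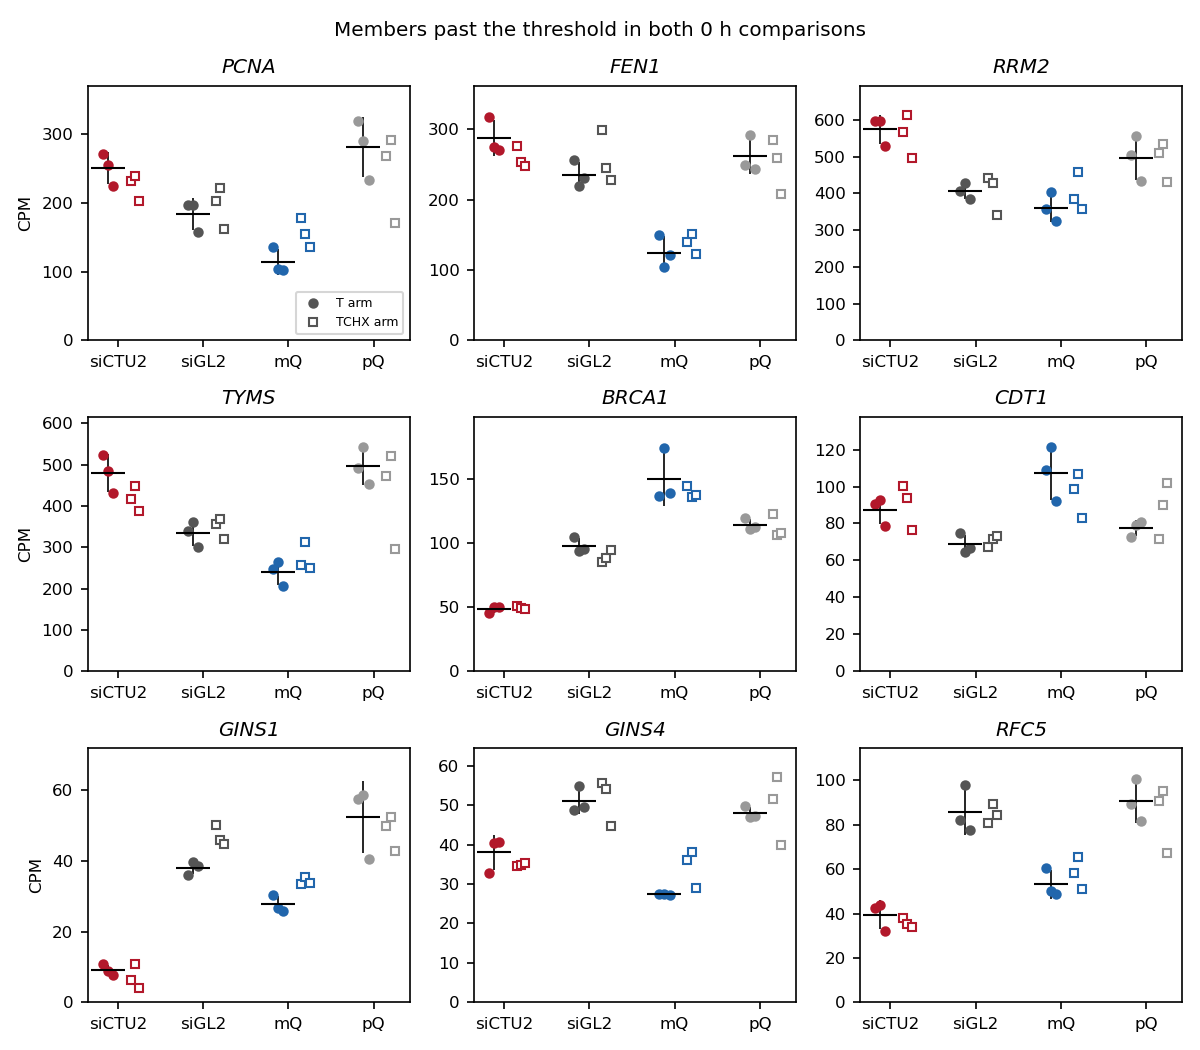
CPM per library at 0 h for the 9 genes called in both comparisons, with PCNA, FEN1, RRM2, TYMS and BRCA1 in opposite directions and CDT1, GINS1, GINS4 and RFC5 in the same direction. Filled circles are T arm libraries, hollow squares TCHX arm libraries, and the dash with bar is the mean ± SD of the 3 T arm libraries. GINS1 in siCTU2 lay between 7.85 and 10.9 CPM in the T arm, below every other condition.

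The difference between the responses was tested directly as (siCTU2 − siGL2) − (mQ − pQ) on the 12 T arm libraries at 0 h. It passed for 18 of the 41 genes, 15 positive and 3 negative, where 32.0% of 12950 genes passed, 15.9% positive and 16.1% negative. TYMS had the smallest p (1.52 on the log2 scale, SE 0.15, adjusted p = 5.94e-07). It was followed by BRCA1 (−1.45, SE 0.15, adjusted p = 8.93e-07), PCNA (1.70, SE 0.18, adjusted p = 1.54e-06) and FEN1 (1.30, SE 0.16, adjusted p = 9.62e-06). These 4 genes passed in every alternative run. All 3 genes of nucleotide supply passed, RRM2 with 0.90 and RRM1 with 0.42. GINS1 (−1.20, adjusted p = 0.000439) and LIG1 (−0.64, adjusted p = 0.0190) were the other negative ones, so GINS1, lower in both experiments, was lower by more in siCTU2. For CDT1 (−0.18, adjusted p = 0.410), GINS4 (0.33, adjusted p = 0.123) and RFC5 (−0.41, adjusted p = 0.110) the difference did not pass.

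Further genes of the same processes, from lists made with earlier results of these data known, were read in the same fits. Beside the counts that follow, 17.8% of all genes tested were higher and 18.2% lower in siCTU2, and 12.5% higher and 12.4% lower in mQ. Of 59 other replication and repair genes tested, 13 were higher and 11 lower in siCTU2, and 0 were higher and 17 lower in mQ. The single-strand binding protein RPA split by subunit in siCTU2, with RPA2 (−1.92, adjusted p = 1.17e-10) and RPA3 (−1.32, adjusted p = 1.41e-08) lower and RPA1 (0.92, adjusted p = 2.81e-07) higher. In mQ, RPA3 (−0.82, adjusted p = 0.000322), TICRR (−1.18), GMNN (−0.71) and UHRF1 (−0.74) had the smallest p. Of 26 genes of mitosis and G2/M, 16 were higher and 0 lower in siCTU2, and 0 higher and 12 lower in mQ. The kinesin KIF20A rose by 1.21 in siCTU2, and the mitotic cyclin CCNB1 (−0.92) and its kinase CDK1 (−0.84) were lower in mQ. Of 14 G1/S regulators tested, 6 were higher and 1 lower in siCTU2, led by the CDK inhibitors CDKN1A (2.49, adjusted p = 1.12e-12) and CDKN1B (1.31, adjusted p = 2.22e-08). In mQ, 2 of these were higher and 6 lower, with TFDP1, the partner of E2F factors, at −0.99 (adjusted p = 8.83e-05).

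Promoters were read because the list is known for E2F control. RefSeq promoters (GRCh38, 250 bases before to 50 after the start) were found for 37 of the 41 genes. A word of the E2F consensus on either strand (TTTCCCGC, TTTCGCGC, TTTGCCGC or TTTGGCGC) was present in 20 of these 37 (54.1%), against 3.31% of 35116 promoters. CCAAT, the word of NF-Y, was present in 20 (54.1%), against 34.6%, and both in 10 (27.0%), against 1.22%. Each gene of the list gave 1 promoter, whereas the 35116 were all promoter entries, not limited to expressed genes. With a list known for E2F control, these shares are a description only. As examples, the matches in the 4 genes called in both experiments that held the word, and in POLE2, the lowest gene in mQ, are shown along the gene's strand with the word in capitals.
PCNA, chr20:5126674-5126681, minus strand: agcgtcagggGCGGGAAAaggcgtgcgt
TYMS, chr18:657614-657621, plus strand: cgggacggccGCGGGAAAaggcgcgcgg
GINS1, chr20:25407678-25407685, plus strand: gctttgttcgGCGCCAAAgcgcggagcg
CDT1, chr16:88803754-88803761, plus strand: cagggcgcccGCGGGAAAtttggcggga
POLE2, chr14:49688212-49688219, minus strand: tgcggcggtgGCGCCAAAtcgcaaatat
Of the 20 genes with the word, 5 were lower and 3 higher in siCTU2 and 8 lower and 1 higher in mQ. Of the 17 without it, 2 were lower and 2 higher in siCTU2 and 5 lower and 1 higher in mQ. The RefSeq start of PCNA used here lies upstream of its GENCODE canonical transcript. PCNA, TYMS and CDT1 carried GCGGGAAA, and GINS1 and POLE2 carried GCGCCAAA.

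After transcription was blocked, levels were scaled to genes whose share of the reads rose (198 in the siRNA experiment and 82 in the medium experiment, none of them on the list, with 2.95 to 8.76% and 1.39 to 5.47% of a library's counts). On this scale the T arm change, the mean of 3 and 5 h minus 0 h, was lower for 35 genes in siCTU2, 23 in siGL2, 27 in mQ and 34 in pQ, and higher for 0. Of all genes, 62.3%, 47.3%, 56.9% and 64.5% were lower, respectively, and 1.55%, 1.08%, 1.16% and 1.17% were higher (63.8%, 48.4%, 58.1% and 65.7% in either direction). The list's median changes of −0.75, −0.62, −0.59 and −0.69 lay beside medians of −0.70, −0.60, −0.64 and −0.72 for all genes. The level thus depends on the scale, since TMM scaling, which centres the genes near 0, left 7, 5, 5 and 4 genes lower. On that scale 28.3%, 22.3%, 16.2% and 24% of all genes passed in either direction. Values are therefore also given relative to the median of all genes. Leaving out 1 replicate moved the counts to 21 without replicate 1 in siCTU2, to 13 without replicate 2 and 35 without replicate 3 in siGL2, to 12 without replicate 1 and 7 without replicate 2 in mQ, and to 22 without replicate 1 and 14 without replicate 2 in pQ. The shares of all genes moved too, to 40.2% in that siCTU2 run, 27.6% and 59.4% in siGL2, and 29% and 20.2% in mQ.

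**Figure D3:**
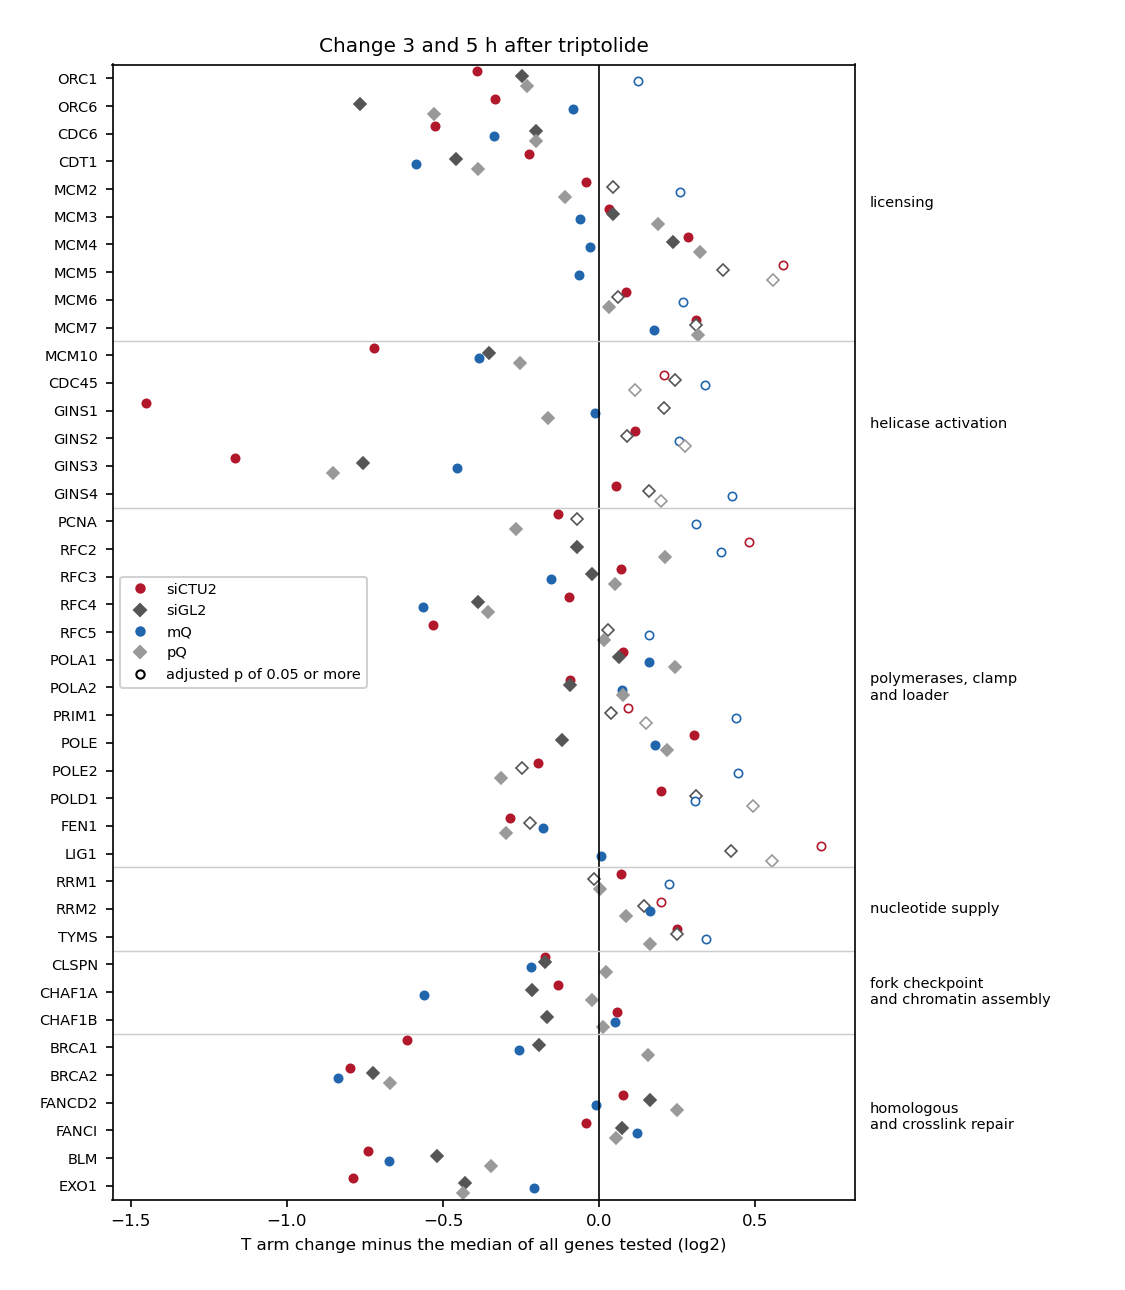
T arm change (log2, mean of 3 and 5 h minus 0 h) of each gene relative to the median of all genes, by role, in siCTU2 (circles) and siGL2 (diamonds) and in mQ (circles) and pQ (diamonds). In siGL2, ORC6 lay lowest at −0.77 and LIG1 highest at 0.42.

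The order of the genes was alike in the control conditions. In siGL2 the lowest changes were those of ORC6 (−1.36, SE 0.28, adjusted p = 0.000702), GINS3 (−1.35, SE 0.21, adjusted p = 6.42e-05) and BRCA2 (−1.32, SE 0.13, adjusted p = 5.38e-07). The same genes were lowest in pQ, with GINS3 at −1.57 (adjusted p = 6.27e-06), BRCA2 at −1.39 (adjusted p = 2.68e-06) and ORC6 at −1.25 (adjusted p = 0.000303). In siGL2 these 3 changes differed from each other by less than their standard errors. LIG1, MCM5 and POLD1 were highest in both, at −0.18, −0.20 and −0.29 in siGL2 (adjusted p from 0.182 to 0.308) and at −0.17, −0.16 and −0.23 in pQ (adjusted p from 0.177 to 0.454). Relative to the median gene, they lay at 0.42, 0.40 and 0.31 in siGL2 and at 0.55, 0.56 and 0.49 in pQ, and on the TMM scale their changes had a positive sign. Across the list the changes in siGL2 and pQ had a Pearson correlation of 0.89 and a Spearman correlation of 0.85, beside 0.89 and 0.80 for all genes.

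As percent of the 0 h library of the same replicate, GINS3 stood at 28.6, 25.7 and 25.8% at 5 h in the siGL2 T arm and at 27.2, 24.7 and 19.9% in pQ. BRCA2 stood at 34.3, 27.0 and 38.0% in siGL2 and at 24.3, 26.1 and 49.1% in pQ. ORC6 stood at 41, 27.0 and 22.5% in siGL2 and at 45.5, 40.8 and 30.6% in pQ. All of these values were below 50%. In contrast, LIG1 stood at 73.0, 90.7 and 112% in siGL2 and at 83.6, 81.1 and 141% in pQ. MCM5 stood at 76.0, 89.8 and 108% in siGL2 and at 92.8, 89.6 and 120% in pQ, and POLD1 at 76.6, 90.1 and 69.1% and at 93.9, 91.5 and 79.7%. No T arm library of the control conditions at 5 h put any of LIG1, MCM5 or POLD1 below any value of GINS3, BRCA2 or ORC6. These genes were chosen as the lowest and highest changes in the same libraries, so their separation is a description and no test.

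**Figure D4:**
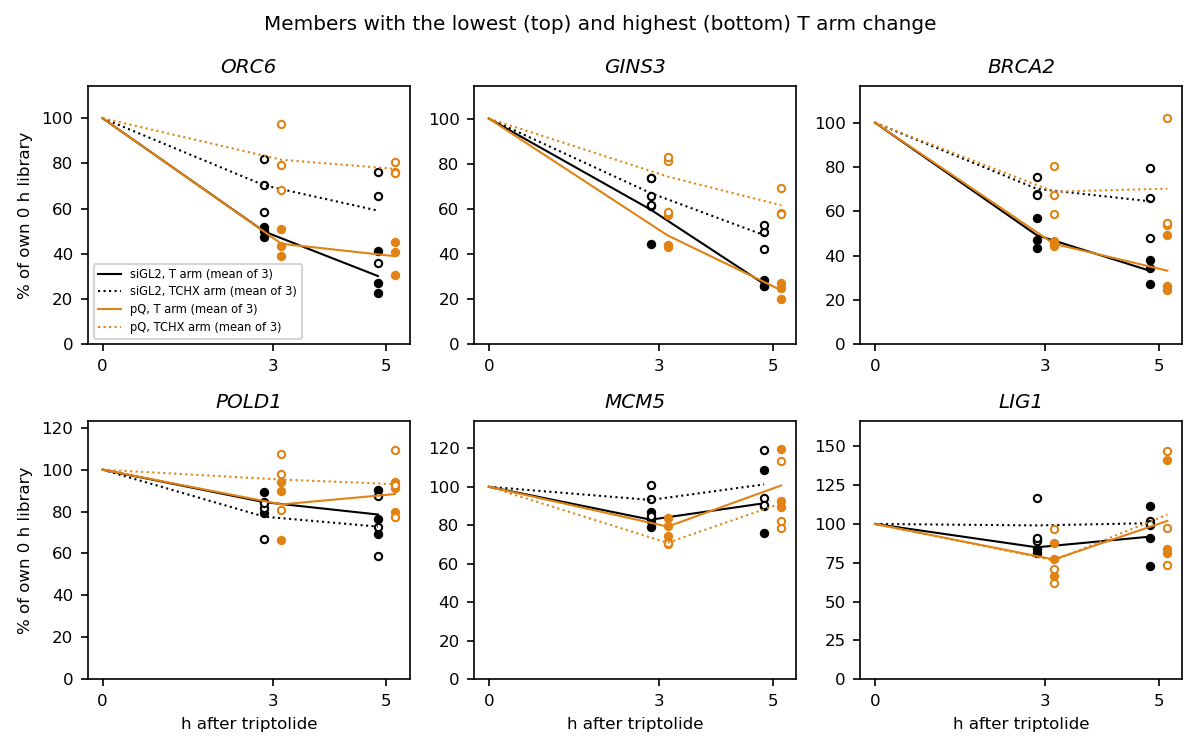
Level at 0, 3 and 5 h as percent of the 0 h library of the same replicate and arm for ORC6, GINS3 and BRCA2 (top) and POLD1, MCM5 and LIG1 (bottom), in siGL2 (black) and pQ (orange). Filled points with solid lines are the T arm and hollow points with dotted lines the TCHX arm, with lines through the mean of the 3 replicates. GINS3 in siGL2 reached 25.7 to 28.6% at 5 h in the T arm and 42.2 to 53.0% in the TCHX arm.

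By role, all 6 repair genes and all 3 genes of fork checkpoint and chromatin assembly were lower in all 4 conditions on the stable-gene scale. Relative to the median gene, BRCA2, BLM, EXO1 and CHAF1A lay below it in all 4 conditions. FANCD2, FANCI, BRCA1, CLSPN and CHAF1B lay on both sides of it. FANCD2 lay at 0.076, 0.16, −0.012 and 0.25 in siCTU2, siGL2, mQ and pQ. In total 21 of the 41 genes were lower in all 4 conditions, 4 in 3, 9 in 2 and 5 in 1, while CDC45 and PRIM1 were lower in none. Of all genes tested in the 4 conditions, 38.8% were lower in all of them. RRM1, RRM2 and TYMS were among the genes called in 2 conditions, as were PCNA and POLE2. GINS1 had the lowest change of the list in siCTU2 (−2.15, SE 0.55, adjusted p = 0.00299), where its counts were low from the start, against −0.39 in siGL2 (adjusted p = 0.115).

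Cycloheximide raised the level of some of the genes that fell. The cycloheximide effect, TCHX minus T over 3 and 5 h, was positive and past the threshold for 13 genes in siCTU2, 9 in siGL2, 1 in mQ and 6 in pQ, and for 0 in the negative direction. Of all genes, 21.2%, 12.7%, 4.33% and 12.3% were higher and 0.183%, 0.479%, 0.141% and 0.420% lower (21.4%, 13.2%, 4.47% and 12.8% in either direction). BLM passed in all 4 conditions, where 3.13% of genes did. CDT1, MCM10, GINS3 and BRCA2 passed in 3, ORC6, RFC4, CLSPN, CHAF1A and BRCA1 in 2, and ORC1, CDC6 and EXO1 in 1. The remaining 28 genes passed in none, as did 74.6% of all genes. These 28 held all of the MCM2-7 subunits, all 3 genes of nucleotide supply and 12 of the 13 genes of polymerases, clamp and loader, RFC4 being the exception.

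**Figure D5:**
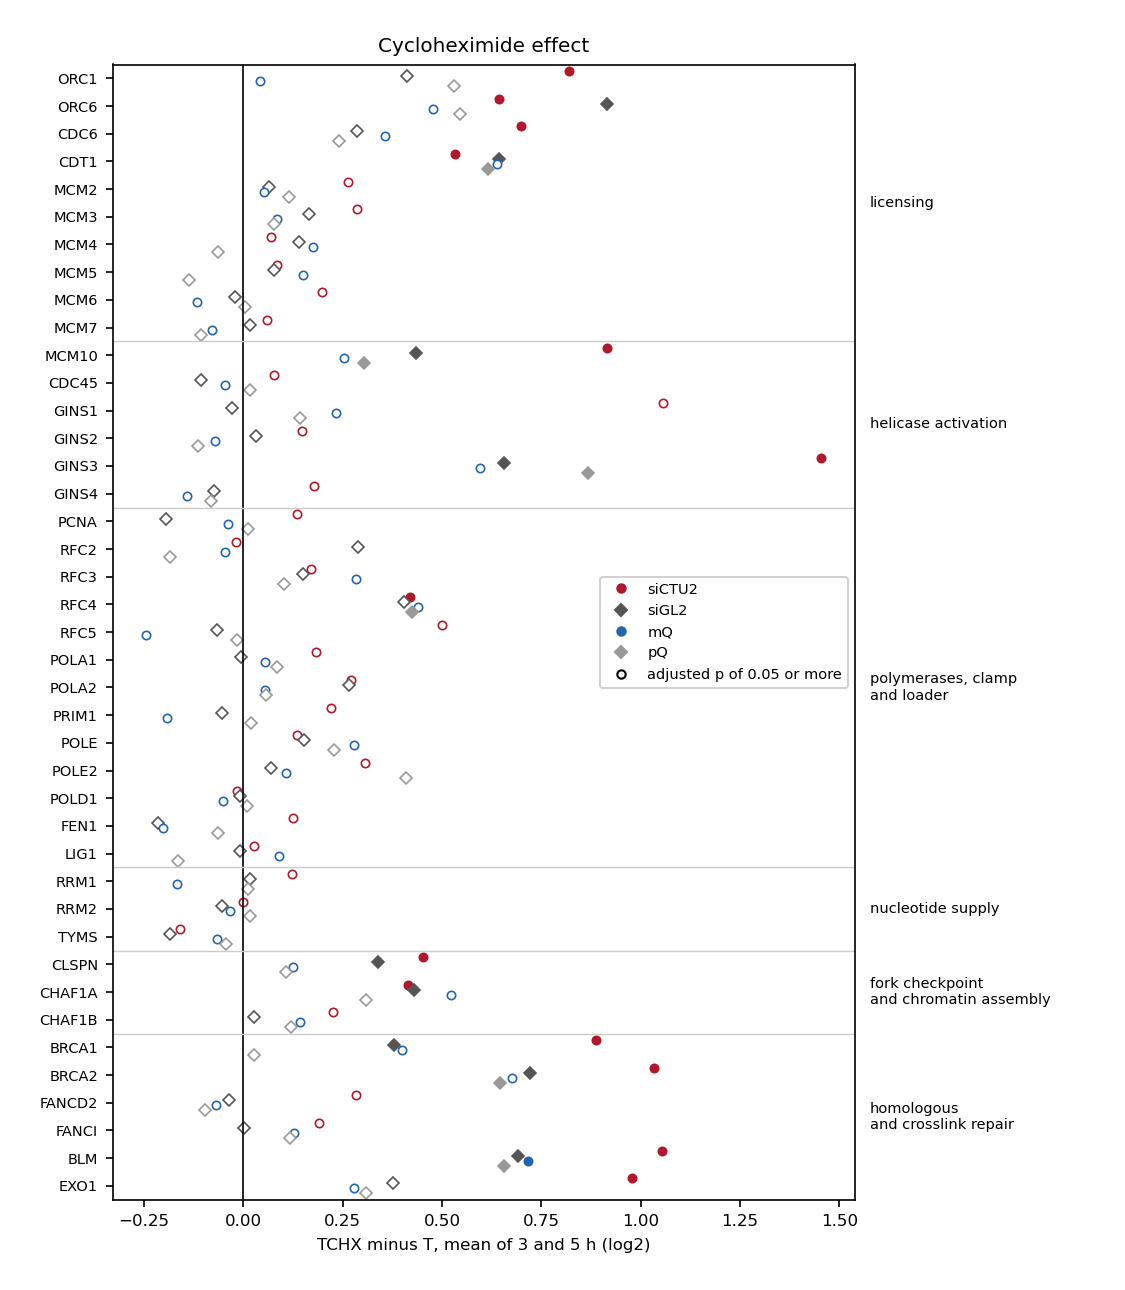
Cycloheximide effect (log2, TCHX minus T, mean of 3 and 5 h) of each gene by role, in siCTU2 (circles) and siGL2 (diamonds) and in mQ (circles) and pQ (diamonds). BLM lay between 0.66 and 1.05 in the 4 conditions, and the genes of nucleotide supply lay between −0.19 and 0.12.

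BLM stood at 31.7, 26.9 and 36.4% of its 0 h level at 5 h in the siGL2 T arm and at 71.4, 71.8 and 68.2% in the TCHX arm. In pQ the values were 35.5, 33.3 and 40.0% against 73.7, 57.0 and 89.4%. The arms did not overlap at 5 h in either control condition. The effect was 1.05 in siCTU2 (SE 0.15, adjusted p = 4.20e-05), 0.69 in siGL2 (SE 0.12, adjusted p = 0.000570), 0.72 in mQ (SE 0.19, adjusted p = 0.0395) and 0.66 in pQ (SE 0.13, adjusted p = 0.00173). In mQ the BLM call was lost without replicate 1 (adjusted p = 0.571) or replicate 2 (adjusted p = 0.628). In siGL2 it was lost without the same replicates (adjusted p of 0.0810 and 0.0979), and in pQ without replicate 2 (adjusted p = 0.115). BRCA2 was lost in siGL2 without replicate 2 (adjusted p = 0.0620) and in pQ without replicate 1 or 2 (adjusted p of 0.117 and 0.148).

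BRCA2 stood at 20.4, 22.4 and 29.9% at 5 h in the siCTU2 T arm and at 45.3, 53.9 and 83.4% in the TCHX arm. In siGL2 its TCHX arm stood at 48.0, 65.9 and 79.6% and in pQ at 53.9, 54.7 and 102%, all above the T arm values given before. The effects were 1.03, 0.72, 0.68 and 0.64 in siCTU2, siGL2, mQ and pQ, with adjusted p of 1.21e-05, 0.000212, 0.0688 and 0.00431. GINS3, in the siCTU2 T arm at 19.5, 22.2 and 8.48% and in the TCHX arm at 46.0, 52.1 and 129%, had effects of 1.45, 0.66, 0.60 and 0.87, of which that in mQ did not pass (adjusted p = 0.300). The highest of these TCHX values, in BRCA2 and in GINS3, belonged in siCTU2 to the library that stood apart.

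CDT1, which is destroyed as protein when S phase starts, stood at 28.6, 43.1 and 41.4% at 5 h in the siGL2 T arm and at 63.5, 74.0 and 65.8% in the TCHX arm. In pQ it stood at 27.1, 43.4 and 44.4% against 75.6, 60.2 and 75.9%. Its effects were 0.53, 0.64, 0.64 and 0.62, past the threshold in all conditions but mQ (adjusted p = 0.0625). The CDT1 call was lost in siGL2 without replicate 1 (adjusted p = 0.0586) and in pQ without replicate 1 or 2 (adjusted p of 0.105 and 0.0766). MCM10 stood at 22.6, 33.0 and 29.9% in the siCTU2 T arm and at 60.0, 69.6 and 110.5% in the TCHX arm, the last in the library that stood apart, with an effect of 0.92 (adjusted p = 0.000115) and of 0.80 without that library (adjusted p = 0.000238). CHAF1A in siGL2 stood at 40.5, 57.4 and 60.0% against 67.8, 81.7 and 71.9% (0.43, adjusted p = 0.00403), a call lost without replicate 1 (adjusted p = 0.228) or 2 (adjusted p = 0.134). That of GINS3 in pQ was lost without replicate 1 (adjusted p = 0.167). BRCA1 in mQ stood at 48.2, 41.6 and 60.1% in the T arm and at 70.5, 66.7 and 111% in the TCHX arm, and its effect of 0.40 did not pass (adjusted p = 0.0763).

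In siCTU2 the median effect of all genes was 0.21, so that relative to it BLM stood at 0.84, BRCA2 at 0.82, GINS3 at 1.24 and MCM10 at 0.70. With the difference between the arms at 0 h subtracted, 4 genes passed in siCTU2, 1 in siGL2 and 0 in mQ and pQ. Of all genes, 9.12%, 3.72% and 0.00744% passed in either direction in siCTU2, siGL2 and mQ. Single replicates decided much of the counts, with 8 genes without replicate 1 in siCTU2, 1 without replicate 1 and 1 without replicate 2 in siGL2, and the same in pQ. In that siCTU2 run 9.31% of all genes passed, and in those siGL2 runs 4.92% and 4.96%. In mQ, 16 genes passed without replicate 3, which held the library that stood apart, and 0 without replicate 1 or 2. Of all genes, 24.3% passed without replicate 3, and 0.00733% and 0.00749% without replicate 1 and replicate 2. With the library that stood apart left out of mQ, 13 genes of the list and 20.7% of all genes passed, with BRCA2 at 1.01 (adjusted p = 3.13e-06) and CDT1 at 0.92 (adjusted p = 2.75e-05).

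The T arm change and the cycloheximide effect were then compared between conditions, which asks whether CTU2 siRNA or glutamine depletion altered decay. By edgeR, 0 of the 41 genes passed in any of the 4 tests, where 0.105% and 0.379% of all genes passed for siCTU2 against siGL2 in the T arm change and the cycloheximide effect, and 0% and 0% for mQ against pQ. In siCTU2 against siGL2 the shares split into 0.0491% higher and 0.0561% lower for the T arm change and 0.351% higher and 0.0281% lower for the cycloheximide effect. At an unadjusted p under 0.05 there were 2, 6, 1 and 1 genes, and DESeq2 called 0. The share of all genes at that unadjusted threshold is not given here, so these counts are a description only. For siCTU2 against siGL2, GINS1 had the smallest p in the T arm change (−1.77, SE 0.62, adjusted p = 0.492). GINS3 had it in the cycloheximide effect (0.82, SE 0.29, adjusted p = 0.281). In siCTU2 TCHX at 5 h, GINS1 stood at 36.1, 14.5 and 474% of its 0 h level, the last in the library that stood apart and held more CTU2 RNA.

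The index of translation-dependent decay (TDD) is TCHX minus T divided by the 0 h level. It was compared by a linear model at an unadjusted p of at most 0.05. Between siCTU2 and siGL2, 0 of the 41 genes passed, where 8.15% of 12263 genes did, 7.28% higher and 0.873% lower in siCTU2. Between mQ and pQ, 4 passed, where 4.78% of 12395 genes did (3.48% higher and 1.30% lower in mQ), and all had the higher index in mQ. They were MCM4 (difference 0.13, SE 0.031), MCM5 (0.18, SE 0.052), RFC3 (0.084, SE 0.026) and BRCA1 (0.18, SE 0.067). MCM5 had a mean index of 0.094 ± 0.13 in mQ and of −0.082 ± 0.020 in pQ (SD, 6 values from 3 replicates and both times), so it lay below 0 in pQ. After adjustment over all genes none of the 4 passed (adjusted p of 0.725 or more), and the count was 0 without replicate 1, 1 without replicate 2 and 12 without replicate 3. In siCTU2 the mean index was positive in 38 of the 41 genes and in 76.2% of all genes, and in siGL2 in 24 genes and 55.7%.

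The codons read by the tRNAs that CTU2 modifies, AAA, GAA and CAA, made up 8.48% of the coding sequence in the median gene of the list (1.36 to 15.7%), against 6.62% over 10776 genes. Of the 41 genes, 26 lay above that median. BRCA2 (15.7%), CLSPN (14.9%), BRCA1 (13.6%) and GINS1 (13.3%) had the highest shares, and POLD1 (1.36%), CDT1 (1.47%) and MCM5 (1.91%) the lowest. Of the high-share genes, BRCA1 and GINS1 were lower in siCTU2 at 0 h, while BRCA2 (−0.26, adjusted p = 0.0845) and CLSPN (0.081, adjusted p = 0.438) did not pass. BRCA1, GINS1 and CLSPN also hold a match to the seed of siCTU2#2. Among the other lower genes, RFC5 (6.47%), LIG1 (5.55%) and MCM3 (4.83%) lay below the median of all genes. CDC6 (12.3%), EXO1 (9.93%), GINS4 (9.42%) and MCM4 (7.88%) lay above it. Of the higher genes, PCNA (9.20%), RRM2 (7.46%) and TYMS (6.71%) lay above it, and FEN1 (5.26%) and CDT1 below. A link between these shares and the changes was not tested.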

How the data were processed

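The values used are raw read counts per gene of 72 QuantSeq libraries, as deposited by the authors in 1 table. Per the study's methods and the submitters' processing notes, the authors trimmed forward reads with fastp 0.20.1, mapped them to GRCh38.p13 with HISAT2 2.2.1 and counted reads on exons with HTSeq 0.13.5. The strand setting is not given in the sources used here, and no step on molecular identifiers is stated, so reads are not independent molecules. ERCC spike-ins were added according to the labels but carry no rows by name in the table used here. Columns of other samples numbered 0.

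Genes were filtered with filterByExpr and tested by edgeR 4.0.16 (quasi-likelihood, R 4.3.3), with Benjamini-Hochberg adjustment over all genes tested and a threshold of 0.05. At 0 h, TMM factors were used on the T arm libraries of the groups compared. Time courses used the 18 libraries of a condition and factors from genes of at least 0.2 CPM whose share of reads rose by at least 10%, since triptolide lowers most RNAs. Comparisons between conditions used 36 libraries. The TDD index used a linear model on condition, time and replicate for genes with a mean 0 h count of at least 10. The main kinds of test were also run on simulated counts, with the same spread for every gene and no libraries that stood apart. Simulated time courses and TDD values used the siRNA experiment alone. These runs do not show how the tests behave at the spread of the real libraries. DESeq2 1.42.0, TMM scaling, no filter, the other arm, single times, a replicate block and leaving out replicates were run as alternatives.

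The 41 genes, the other lists and the tests were chosen with earlier results of these data known. Genes named were the 8 with the smallest p per 0 h comparison, those called in opposite directions, the 4 with the smallest p in the difference and in each cycloheximide effect, the 3 lowest and 3 highest T arm changes in siGL2 and pQ, and 6 with qPCR primers listed by the study. Of the other lists, up to 4 genes each were named. Other called genes, and those beside them in a complex, were named after their values were seen. Gene models came from GENCODE v44 and promoters from RefSeq.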

Additional observations from a re-analysis of the deposited data

How the results depend on the processing

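At 0 h the counts in siCTU2 were 5 higher and 9 lower, and leaving out 1 library gave 4 to 5 and 7 to 10. In those runs 28.5 to 33% of all genes passed in either direction. With both arms, 9 were higher and 13 lower, where 48.7% of all genes passed in either direction. LIG1 turned to 0.095 in the TCHX arm. In mQ, 2 higher and 15 lower became 0 to 3 and 11 to 23 without 1 library (11.7 to 26.3% of all genes). They became 0 and 7 in the TCHX arm (6.47%), with 1 higher in that arm without the library that stood apart (20.1%). With both arms 25 were lower (29.9%), and 26 with both arms without that library (35.3%). The alternatives without that library were chosen after seeing the data. These shares of all genes are for either direction. Without 1 library EXO1 in mQ ranged from −0.29 to 0.069 and turned positive without pQ replicate 1. The difference between the responses passed for 18 genes, for 10 in the TCHX arm and for 15 to 20 without 1 library. The shares of all genes were 32%, 23.2% and 25.5 to 33.6%.

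The lower genes in the T arm, 35, 23, 27 and 34 in siCTU2, siGL2, mQ and pQ, became 7, 5, 5 and 4 on the TMM scale. There 28.3%, 22.3%, 16.2% and 24% of all genes passed in either direction. At 3 h alone they were 19 in siCTU2 and 15 in siGL2, where 37.9% and 29% of all genes passed. With genes stable at both times they were 38 in siGL2 and 41 in mQ, where 73.5% and 85.8% of all genes passed. Leaving out 1 replicate gave 21 to 34, 13 to 35, 7 to 32 and 14 to 40. In siCTU2, siGL2 and mQ the shares of all genes were then 40.2 to 57%, 27.6 to 59.4% and 20.2 to 63.7%. On the TMM scale POLD1, MCM5 and LIG1 turned to 0.32, 0.43 and 0.47 in siGL2 and to 0.48, 0.56 and 0.57 in pQ. At 5 h alone in pQ, LIG1 turned to 0.043 and MCM5 to 0.0034.

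The cycloheximide effect, higher for 13, 9, 1 and 6 genes, became 8 (siCTU2) and 5 (mQ) on the TMM scale. There 17.5% and 8.88% of all genes passed. With genes stable at both times the counts were 8, 5, 10 and 0. In siCTU2, siGL2 and mQ, 14.1%, 9.53% and 13.8% of all genes then passed. The counts became 1, 0, 0 and 0 at 3 h alone, 0 in mQ at 5 h alone, and 4, 1, 0 and 0 with the 0 h difference subtracted. At 3 h alone 4.72%, 3.64% and 0.29% of all genes passed in siCTU2, siGL2 and mQ. With the 0 h difference subtracted, 9.12%, 3.72% and 0.00744% did. In mQ at 5 h alone the share was 0.216%. In mQ the count was 4 by DESeq2, 4 with no filter and 13 without the library that stood apart. Of the genes in these runs, 4.03%, 5.89% and 20.7% passed. Leaving out 1 replicate gave 8 to 12, 1 to 13, 0 to 16 and 1 to 9. The shares of all genes were then 9.31 to 16%, 4.92 to 20.3% and 0.00733 to 24.3% in siCTU2, siGL2 and mQ.

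Between conditions, the T arm change of siCTU2 passed for 1 gene with no filter, for 1 without the library that stood apart and for 0 to 1 without 1 replicate, that of mQ for 0 to 2, and the cycloheximide effect of mQ for 0 to 1. The TDD index passed in siCTU2 for 1 gene on the TMM scale, 10 with each arm over its own 0 h library, 2 without the library that stood apart and 0 to 1 without 1 replicate. In mQ, 4 became 1, 11, 8 and 0 to 12. The cause of these changes was not tested.

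Same-numbered libraries correlated at 0.0764, 0.174 and 0.254 between siCTU2 and siGL2, where 6 of 6 libraries correlated best with their own number, and at 0.107, −0.138 and −0.130 between mQ and pQ (2 of 6). Column headers carry the same prefix for all libraries of a replicate number, across all conditions. The sources do not say what this prefix stands for. Since not every correlation was over 0.1, same-numbered libraries were not taken as pairs. Given the prefix and the best matches in the siRNA experiment, a pairing remains possible, and the main fits do not account for it. With the replicate block, 6 genes were higher and 13 lower at 0 h in siCTU2, where RRM1 passed (0.17, adjusted p = 0.0241), and 2 and 16 in mQ. In these fits 41.5% and 19.9% of all genes passed. CDT1 passed in the cycloheximide effect in mQ (0.66, adjusted p = 0.0474). With the block, 36 genes were lower in the siGL2 T arm and 2 had a higher cycloheximide effect in mQ. There 59.7% and 6.17% of all genes passed. Without the replicate block the TDD index passed for 1 gene in siCTU2. The siCTU2 libraries at 0 h held 95 to 103 reads of GINS1, which limits the precision of its later percentages.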
